A study of Homo sapiens with 4 samples.

Results

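The regions described here were 1660 distal FAIRE sites that were listed in cells with basal SF-1 expression and had no counterpart in cells overexpressing SF-1. They were chosen by their place in the peak lists, out of 34423 sites in the basal list and 65642 in both lists together. A basal site was taken if it shared no base with a site of the overexpression list and if its peak number lay in the first 50% of its list, that is at 17211 or below. Its centre also had to lie farther than 10 kb from every annotated transcription start and within 200 kb of the start of a protein-coding gene. Of the 34413 basal sites on chromosomes 1 to 22 and X, 15762 had no overlapping overexpression site, 4511 of those were early in the list and 2020 of those were farther than 10 kb from every start.

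H295R is a human adrenocortical tumour cell line, and H295R/TR SF-1 is a subclone of it in which doxycycline induces SF-1. Both conditions therefore carried the same inducible SF-1 construct, and they differed in 3 days of doxycycline. The basal condition was 1 FAIRE library and the overexpression condition another, and the 2 input DNA libraries of the series were not analysed here. With 1 library per condition no difference has a replicate check, no test between conditions exists, and all intervals are 95% intervals that cover counting error only, sites not being replicates.

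FAIRE recovers the DNA that is left unbound by nucleosomes after crosslinking, so its peaks mark promoters, enhancers and other occupied elements. SF-1 (NR5A1) is the nuclear receptor that directs adrenal development and steroid production, and it binds as a monomer to an extended half-site. CTCF marks insulators and the anchors of chromatin loops, AP-1 is the FOS and JUN dimer that occupies many enhancers, and TCF/LEF factors carry the nuclear output of Wnt signalling. Elements far from any start act on genes through loops, so the gene with the nearest start, which names the sites below, need not be the gene that an element serves. A site that was not called in the overexpression list is not thereby closed, because the lists held neither reads nor heights and the depth of the libraries is unknown.

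Sequences of 6 members are given first, because the results turn on the motifs that they carry. They are the members earliest in the list, at most 300 bp wide, that held an exact CTCF core, an AP-1 word, an SF-1 word or a pair of these. Each is the + strand of GRCh37 (hg19), and capitals mark the motif.
CTCF core at LDHB (site 2362, chr12:21850801-21851099): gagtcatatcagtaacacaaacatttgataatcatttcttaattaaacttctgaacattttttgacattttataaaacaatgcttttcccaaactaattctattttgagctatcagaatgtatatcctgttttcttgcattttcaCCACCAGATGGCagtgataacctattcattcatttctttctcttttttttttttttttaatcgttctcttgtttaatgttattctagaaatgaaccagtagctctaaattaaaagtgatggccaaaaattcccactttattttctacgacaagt
CTCF core at IFT81 (site 3403, chr12:110538151-110538399): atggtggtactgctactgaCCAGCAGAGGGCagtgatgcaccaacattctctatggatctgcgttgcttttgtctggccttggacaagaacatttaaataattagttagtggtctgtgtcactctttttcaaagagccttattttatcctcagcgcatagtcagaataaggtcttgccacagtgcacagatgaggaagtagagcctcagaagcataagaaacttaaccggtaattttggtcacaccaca
AP-1 word at AKAP6 (site 3177, chr14:32728901-32729199): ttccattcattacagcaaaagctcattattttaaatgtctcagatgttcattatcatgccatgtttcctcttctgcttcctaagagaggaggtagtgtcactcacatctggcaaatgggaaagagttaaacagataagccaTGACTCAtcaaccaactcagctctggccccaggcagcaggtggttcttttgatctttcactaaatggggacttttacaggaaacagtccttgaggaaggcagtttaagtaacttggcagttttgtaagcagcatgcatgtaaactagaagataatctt
SF-1 word at SLC7A14 (site 2434, chr3:170253701-170253999): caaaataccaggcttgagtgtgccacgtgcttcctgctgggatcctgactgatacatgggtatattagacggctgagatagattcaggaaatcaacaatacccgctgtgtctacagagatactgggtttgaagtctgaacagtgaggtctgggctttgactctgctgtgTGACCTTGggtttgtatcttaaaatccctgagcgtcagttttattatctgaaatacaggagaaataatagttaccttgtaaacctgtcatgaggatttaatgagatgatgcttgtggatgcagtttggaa
AP-1 and SF-1 words at ZNF608 (site 2186, chr5:123886551-123886849): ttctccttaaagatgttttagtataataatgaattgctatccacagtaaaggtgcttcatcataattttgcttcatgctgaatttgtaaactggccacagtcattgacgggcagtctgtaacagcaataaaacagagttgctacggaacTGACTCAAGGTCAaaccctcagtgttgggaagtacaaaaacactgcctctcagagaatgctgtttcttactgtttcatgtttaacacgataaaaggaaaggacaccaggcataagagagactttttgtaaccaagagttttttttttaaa
CTCF core and AP-1 word at TXNIP (site 10001, chr1:145427451-145427699): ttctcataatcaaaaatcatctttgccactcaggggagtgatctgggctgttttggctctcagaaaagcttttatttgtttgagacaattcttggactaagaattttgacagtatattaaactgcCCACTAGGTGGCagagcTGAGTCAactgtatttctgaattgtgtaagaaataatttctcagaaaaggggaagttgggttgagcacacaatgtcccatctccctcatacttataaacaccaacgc

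The CTCF core of site 2362 lay at bases 146 to 157, close to the centre of the site, which was in an intron of a coding gene 40045 bp upstream of the nearest start, that of LDHB, a lactate dehydrogenase subunit. At site 3403 the core lay near the left edge, at bases 20 to 31. Site 2186, between genes and 93330 bp downstream of a start of the zinc finger gene ZNF608, carried an AP-1 word at bases 150 to 156 that ran into an SF-1 word at bases 155 to 162, so that both shared 2 bases. Site 10001, 10915 bp upstream of TXNIP, which encodes a regulator of thioredoxin and glucose uptake, held a CTCF core at bases 126 to 137 and an AP-1 word at bases 143 to 149. Site 2434 carried its SF-1 word on the minus strand in an intron, 49966 bp downstream of a start of the solute carrier gene SLC7A14.

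The members made up 38.8% of the 4280 early-listed distal sites of the basal list, and the other 2620, which overlapped an overexpression site, are called shared below. By the same rule read in the other direction, 1048 of 3215 early-listed distal sites of the overexpression list, 32.6%, were called only there, and these are the overexpression-only sites. Since overlap, peak number and distance chose the members, these counts describe them and nothing is read from them. Peak numbers of the members ran from 447 to 17200 with a median of 12092, and widths from 149 to 899 bp with a median of 249 bp. The nearest overexpression site lay at a median of 24027 bp from a member, and 42 members, 2.53%, had one within 500 bp.

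The 10 members with the lowest peak numbers lay near genes of varied roles. Site 626, 349 bp wide, was between genes 41944 bp downstream of the start of WNT5A, a ligand of the Wnt pathway that acts largely without beta-catenin. Site 957 lay 189574 bp upstream of ADAMTS9, which encodes a secreted metalloprotease, and it held an SF-1 word. Site 976 was in an intron of the kinase gene MAST4, and site 1240 in an intron of SDHC, which encodes a subunit of succinate dehydrogenase. Site 1278 was 129043 bp downstream of PLK2, a polo-like kinase gene, and site 1525 was 13557 bp downstream of UPP1, a uridine phosphorylase gene, with an overexpression site 302 bp away. The others were nearest to ZNF703, ZNF385B, MON1B and TRIO. Of these 10 sites none held a CTCF core or an AP-1 word and 1 held an SF-1 word, although such motifs were common among the members as a whole. Among the 3 widest members were 1 in an intron of THSD4 (749 bp), which held an AP-1 word, and 1 near ICE1 (699 bp), which held none.

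At the limits of the rule, the last members had peak numbers 17196 and 17200 and the next candidates 17222 and 17226. The members closest to any start were 10022 bp from one, in an intron of GSG1L, and 10023 bp from one, with KLF14 as the nearest coding gene, while the sites just excluded lay at 9991 and 9990 bp. The farthest members lay 199907 bp from SDHAF3 and 199964 bp from DAAM1, and the closest excluded sites 200310 bp from RBMS3 and 200465 bp from TMEM64. The members that came nearest to overlapping an overexpression site were 2 bp from it, near SMIM19 and FAM72D. FAM72D has near-identical copies in the genome, so that position is uncertain.

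To ask where these sites lay in genes, each centre was compared with the annotation. Introns of protein-coding genes held 910 members, 54.8% (52.4 to 57.2), exons of such genes 40 (2.41%), other gene types alone 148 (8.92%) and the space between genes 562 (33.9%). The intronic share was 4.15 percentage points (0.293 to 8.0) above that of the overexpression-only sites and 3.90 points (0.833 to 6.96) above that of the shared sites. The difference was small beside the share itself, and the lower bound against the overexpression-only sites was close to 0. Of the intronic members 800, or 87.9%, lay inside the gene whose start was nearest. Members fell evenly on either side of the nearest coding start, with 823 (49.6%) upstream. The nearest coding start was 10 to 25 kb away for 641 members, 25 to 50 kb for 421, 50 to 100 kb for 341 and 100 to 200 kb for 257.

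The members were poor in G and C. Their GC content averaged 40.7%, against 46.4% in the overexpression-only sites and 44% in the shared sites, a difference of -5.69 points (-6.27 to -5.12) and of -3.24 points (-3.67 to -2.80). The flanks of the members, taken 1000 bp beyond each end, averaged 41.3% and differed from those of the overexpression-only sites by -2.32 points (-2.85 to -1.79). A member was therefore slightly lower in GC than its own surroundings, by -0.516 points (-0.860 to -0.171), whereas overexpression-only sites were 2.86 points and shared sites 1.97 points above theirs. Among sites with under 35% GC there were 292 members and 51 overexpression-only sites, a ratio of 5.73 (4.24 to 7.87). Among those with 50% or more there were 145 members and 312 overexpression-only sites, a ratio of 0.465 (0.379 to 0.568). The ratio was lower in each higher one of the 5 GC bins. Whether the reads of the libraries differed in GC bias was not tested, as the lists hold no reads, so motif shares are also given within GC strata.

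**Figure D1:**
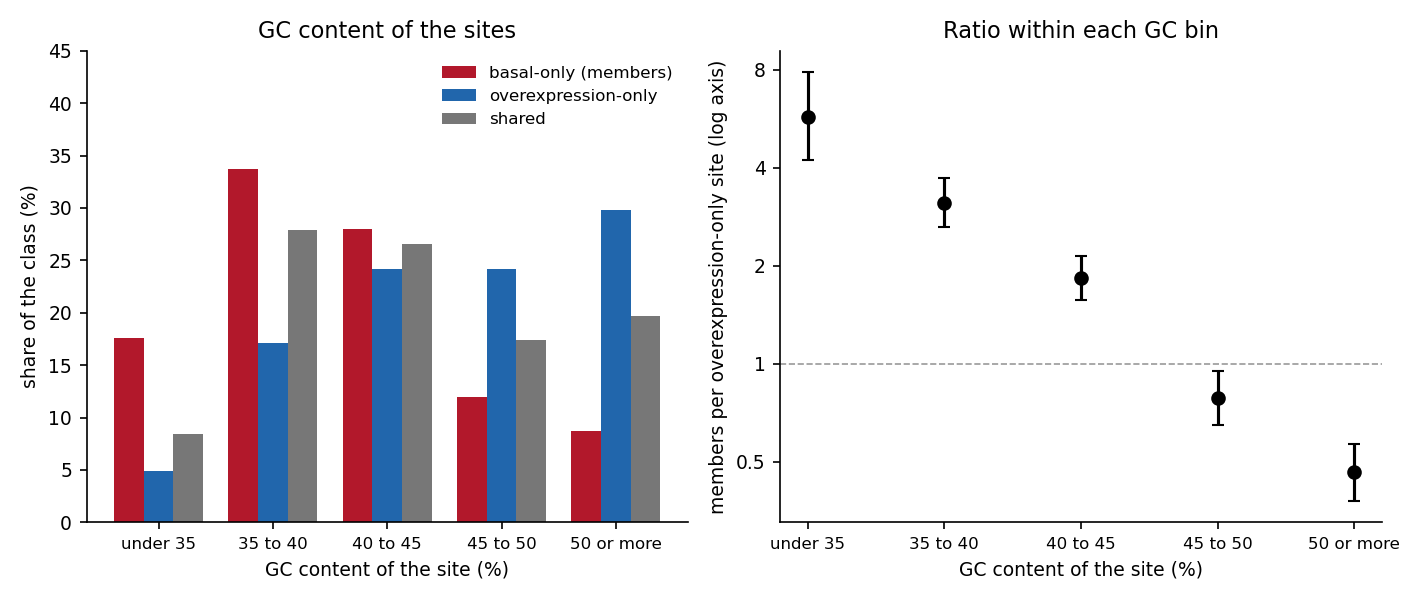
GC content of early-listed distal sites. Left, bars from 0 give the share of each class (percent) in 5 bins of site GC content (percent) for the members, the overexpression-only and the shared sites. Right, points give the number of members per overexpression-only site in each bin on a log axis, with exact 95% intervals. The ratio goes from 5.73 in the bin under 35% to 0.465 in the bin of 50% or more.

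To ask which factors could occupy these elements, both strands of each site were searched for 15 motifs, and for 3 controls with the letters of a motif in another order. The same search in flanks of equal length gave the background. The CTCF core, a 12-letter motif with up to 1 mismatch, was held by 315 members, 19% (17.1 to 20.9), against 1.11% of flanks, a ratio of 17. The SF-1 word, CAAGGTCA or CAAGGCCA, was held by 335 members, 20.2% (18.3 to 22.2), against 3.80% of flanks, a ratio of 5.32. The AP-1 word, TGACTCA or TGAGTCA, was held by 190 members, 11.4% (9.95 to 13.1), against 4.85% of flanks, a ratio of 2.36. The controls lay much closer to their flanks, at 2.11% and 1.30% for the CTCF control, 1.02% and 0.934% for the SF-1 control, and 4.64% and 4.04% for the AP-1 control. An exact CTCF core was held by 99 members. At least 1 of these motifs was present in 774 members, and 886, or 53.4% (50.9 to 55.8), held none of them.

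Of the other motifs, 4 exceeded the flanks with an interval above 0. The C/EBP motif was held by 19.6% of members and 15.1% of flanks, the E-box CAGCTG by 13.2% and 10.2%, and the NBRE AAAGGTCA, the monomer site of the NR4A receptors, by 2.65% and 1.30%. The GATA motif, bound by factors that act in steroidogenic cells, stood at 7.47% of members and 7.35% of flanks, and the intervals of the TEAD, RUNX, FOX, ETS, NFI and OCT motifs reached 0. The cAMP response element TGACGTCA was held by 6 members, 0.361% against 0.0602% of flanks. The CTCF control also exceeded its flanks, by 0.813 points (0.0154 to 1.61), so excesses of this size are not read as motifs. The excesses of C/EBP, E-box and NBRE were not particular to the members. In overexpression-only and shared sites C/EBP stood at 17.4% and 19.6%, the E-box at 16.8% and 15.9%, and the NBRE at 4.01% in both. The members were lower in E-boxes than these classes, by -3.60 points (-6.44 to -0.859) and -2.72 points (-4.84 to -0.542). GATA stood at 9.73% and 9.24% there, also above the members. The 21-letter NRSF/REST motif, searched with up to 4 mismatches, was found in 3 members, 0.181% (0.0373 to 0.527), against 0.120% of flanks. It was found in 7 overexpression-only sites, 0.668% against 0.143% of their flanks, and in 0.305% of shared sites against 0.115%. The members differed from the overexpression-only sites by -0.487 points (-1.20 to 0.00304), an interval that reached 0.

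**Figure D2:**
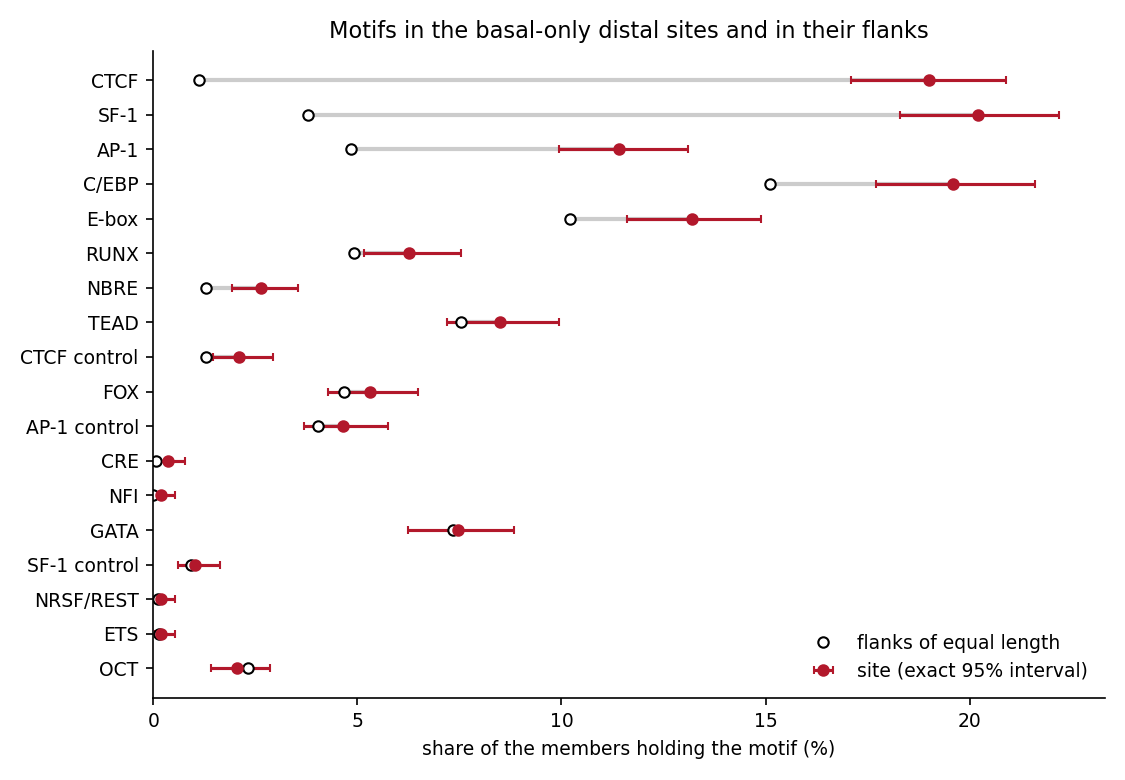
Share of the 1660 members (percent) that held each of 15 motifs and 3 controls, ordered by the difference between site and flanks. Filled points are the sites with exact 95% intervals and open points the flanks of equal length. CTCF (19% against 1.11%), SF-1 (20.2% against 3.80%) and AP-1 (11.4% against 4.85%) stand apart from their flanks, and the controls lie close to theirs.

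The motifs lay in the middle of the sites. In 50 bp bins around the centre of a member, a CTCF core was centred in the bin from -50 to 0 bp in 7.71% of members and in the bin from 0 to 50 bp in 8.13%, but in 1.57% and 1.27% one bin farther out. SF-1 words stood at 5.48% and 6.33% in the inner bins and at 2.89% and 3.73% in the next, a broader peak. AP-1 words stood at 3.07% and 2.71% in the inner bins of the members. In the overexpression-only sites they stood at 1.34% and 1.15% there and at 1.43% and 1.34% in the next bins, with no peak at the centre. In the shared sites they stood at 2.02% and 2.67% in the inner bins and at 1.64% and 1.76% in the next. A central AP-1 peak was therefore not particular to the members.

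**Figure D3:**
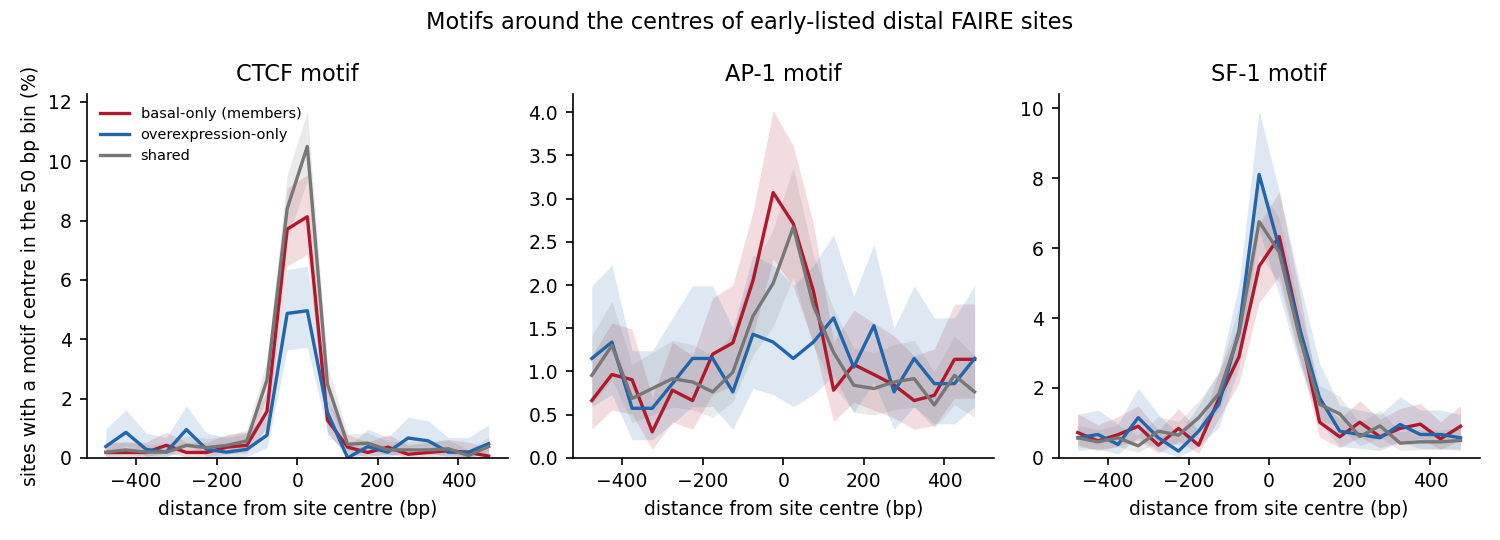
Share of sites (percent) with a motif centred in each 50 bp bin against the distance from the site centre (bp), for CTCF, AP-1 and SF-1. Lines are members, overexpression-only and shared sites, and bands are exact 95% intervals. All classes peak at the centre for CTCF and SF-1. For AP-1 the members reach 3.07% and the shared sites 2.67% at the centre, while the overexpression-only sites stay near 1.34%.

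Against the overexpression-only sites the members held more CTCF and AP-1 motifs. The CTCF core was at 12.2% in the latter, so the members were higher by 6.76 points (3.97 to 9.45). AP-1 was at 7.16% in them, against 5.10% of their own flanks, and the members were higher by 4.29 points (2.04 to 6.44). These calls depended on the setting: the interval reached 0 for an exact CTCF core, at 1.57 points (-0.183 to 3.22), and for AP-1 in sites farther than 20 kb from every start, at 2.57 points (-0.453 to 5.43). The SF-1 word was at 21.9% in the sites called only with overexpression, and the members differed from them by -1.77 points (-4.97 to 1.36). With that word shortened by its first letter the members were lower, by -12.9 points (-16.5 to -9.17). In strata of equal width and GC content the differences were 9.65 points (6.73 to 12.6) for CTCF, 5.38 (3.08 to 7.69) for AP-1 and 1.46 (-2.18 to 5.11) for SF-1, so that only the sign of the last changed. Against the shared sites the order was another. CTCF was at 24.3% there, and the difference was -5.30 points (-7.77 to -2.77). AP-1 was at 9.96% and SF-1 at 22.1%, with differences of 1.48 points (-0.397 to 3.44) and -1.92 points (-4.39 to 0.609). The CTCF excess of the members was thus relative to the overexpression-only sites, and the sites common to both lists held the core more often still. The comparison with the shared sites was not standardised to strata of width and GC. In each of the 5 GC bins the members held the CTCF core less often than the shared sites. The shares were 23.6% against 27.0% under 35% GC and 24.1% against 29.5% at 50% or more. Shared sites were wider, with a mean of 329 bp against 292 bp, and earlier in the list, with a median peak number of 8426 against 12092.

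The SF-1 words were also counted singly by their variable base. The consensus CAAGGTCA was held by 13.3% of members, and by 11.2% of the sites called only with overexpression, which made 2.09 points (-0.479 to 4.55). The variant CAAGGCCA was held by 7.53% and 12.1%, a difference of -4.59 points (-7.01 to -2.30) that was -1.37 (-3.93 to 1.20) within strata of width and GC. For CAAGGACA the shares were 6.99% and 11.3%, and the difference within strata was -4.26 points (-6.88 to -1.63). For CAAGGGCA they were 2.29% and 8.68%, with -4.42 points (-6.28 to -2.55) within strata. In the flanks of the members each of these variants stood between 1.30% and 1.39%. In the shared sites CAAGGTCA stood at 12.8%, CAAGGCCA at 10.6%, CAAGGACA at 10.3% and CAAGGGCA at 4.05%. The A and G variants are no part of the SF-1 motif as searched. They were added after the word counts of these classes were seen, CAAGGGCA from among the words most in favour of the overexpression-only sites, so their differences are a description and support nothing.

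CTCF cores and SF-1 words were rarely held by the same site. Among the 315 members with a CTCF core 8, or 2.54% (1.10 to 4.94), also held an SF-1 word, against 24.3% (22 to 26.7) of the 1345 members without the core. The share beside a core was no higher than the 3.80% of the flanks. AP-1 was also less common beside a CTCF core, at 4.76% (2.69 to 7.73) against 13.0% (11.3 to 14.9). AP-1 and SF-1 words were not set apart in this way: 43 members held both, and SF-1 stood at 22.6% with AP-1 and 19.9% without it. No member held all of the motifs. In the shared sites SF-1 stood at 8.81% beside a CTCF core and 26.4% without, and in the overexpression-only sites at 7.81% and 23.9%, so the separation was not particular to the members. Members with a CTCF core were narrower, with a mean width of 261 bp against 300 bp for those with an SF-1 word and 314 bp for those with an AP-1 word.

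Within the members the motif shares moved little with position. CTCF stood at 18.0% (15.6 to 20.7) in introns and 20.8% (17.5 to 24.4) between genes, AP-1 at 11.2% and 11.9%, and SF-1 at 22% (19.3 to 24.8) and 18.9% (15.7 to 22.3). Along the list, in 4 sets of 415 members by peak number, CTCF was at 14.7% (11.4 to 18.5), 21.0% (17.1 to 25.2), 22.7% (18.7 to 27) and 17.6% (14.0 to 21.6), with no steady course. AP-1 went from 13.0% to 9.16% between the first and the last 415 members and SF-1 from 23.9% to 19.3%, with overlapping intervals. In members under 36% GC, CTCF was at 22.1%, AP-1 at 7.37% and SF-1 at 14.5%. In those of 45% or more it was at 21.2%, 13.4% and 24.7%, so that AP-1 and SF-1 words, but not the CTCF core, were less common in the AT-rich members.

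Words of 8 letters were then counted without any chosen motif. Of the 10 words with the largest excess over the flanks, CAAGGTCA came first, with 220 members (13.3%) against 2.50% of flanks. None of the 10 held the AP-1 word. The list also held AGATCAAA (6.33% against 1.66%), CTTTGATC (5.54% against 0.904%) and CTTCAAAG (7.17% against 1.69%). The first 2 overlap the TCF/LEF core CTTTGAT. The other strand of the third, CTTTGAAG, shares all but the last letter of that core. ATAAATCA was in the list as well (6.63% against 2.02%), and its other strand TGATTTAT is a word that HOX and PBX proteins are known to bind. Since these words were picked from these sites, their excess is a description. The TCF/LEF core CTTTGAT on its own was held by 240 members, 14.5% (12.8 to 16.2), against 4.76% of flanks, and by 6.30% of overexpression-only sites against 4.01% of theirs. The difference between the classes was 8.16 points (5.86 to 10.4), and 6.78 (4.20 to 9.36) within strata of width and GC. The shared sites, from which the word was not picked, held it in 14.9% against 4.87% of flanks, so the lower share was that of the overexpression-only sites. TGATTTAT was held by 6.63% of members, 4.66% of shared and 2.00% of overexpression-only sites, and by 2.02%, 2.58% and 1.48% of their flanks. Runs rich in A led the words that favoured members over overexpression-only sites, such as AAAAAAAA at 14.9% against 7.06%, but the flanks held that word at 17.7%.

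The members were spread over all 23 chromosomes examined. There were 1.58 members per overexpression-only site, and the interval of this ratio lay above that value on chromosomes 5 (2.35) and 12 (2.28) and below it on chromosomes 19 (0.632) and 20 (0.660). Against the shared sites, with 0.634 members per site, chromosome 19 alone had an interval below, at 0.267 (0.128 to 0.513), with 12 members and 45 shared sites. Chromosome 19 is rich in G and C, and whether that bears on its ratios was not tested.

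The nearest coding starts belonged to 1303 genes, 39.0% of the 3337 protein-coding genes that were nearest to any early-listed distal site of either list. Overexpression-only sites were nearest to 888 genes, 26.6%. Of the 1303 genes 1051 had 1 member, 185 had 2 and 67 had 3 or more, and the 252 genes with several held 609 members, 36.7% of all. The share of genes with several sites was 19.3% (17.2 to 21.6), against 13.7% (11.5 to 16.2) for the overexpression-only and 24.8% (22.8 to 26.8) for the shared sites, an order that follows the sizes of the classes. Genes with several members were long, with a median length of 218 kb against 87.0 kb for all 3337. Members joined at 50 kb or less between centres formed 149 groups with 319 sites, 19.2% (17.3 to 21.2). The same share was 15.6% (13.4 to 17.9) for overexpression-only and 26.9% (25.2 to 28.7) for shared sites. At 10 kb or less there were 60 groups with 124 members, 7.47% (6.25 to 8.84), against 6.77% (5.33 to 8.47) and 11.0% (9.82 to 12.3). Grouping was thus not particular to the members. The largest groups of members, joined at 50 kb, had 5 each, in ARHGAP18 over chr6:129930901-129983649 and in CHN2 over chr7:29310551-29417649.

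THSD4, which encodes a protein that promotes fibrillin assembly in the extracellular matrix, had 7 members, all in its introns. The earliest was site 1766, 30094 bp upstream of an internal start, and the others included the 749 bp site 4351. The gene also had 13 shared and 4 overexpression-only sites. PDE4D, which encodes a phosphodiesterase that breaks down cAMP, the messenger of ACTH in adrenal cells, had 7 members, 6 of them in its introns and 1 beyond its 3′ end. It had 9 shared sites and no overexpression-only site. MKLN1, the gene of the scaffold protein muskelin, had 7 members, 3 of them 69505 to 87930 bp upstream of the gene and 4 in introns, beside 4 shared and 0 overexpression-only sites. ASAP1, whose product activates the GTPase activity of ARF proteins, had 6 members, 3 before the gene and 3 inside it, beside 6 shared sites and 1 overexpression-only site.

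Further genes had 5 members. In ARHGAP18, a RhoGAP gene, all 5 lay inside the gene within a 134 kb annotation, beside 1 shared and 1 overexpression-only site. In CHN2, which encodes the RacGAP beta-chimaerin, all 5 were intronic and no overexpression-only site was assigned. MYRIP, which encodes an adaptor between RAB27A and myosins, had 3 members in introns and 2 upstream, 1 shared site and 0 overexpression-only sites. LSAMP, a neuronal adhesion gene, had 5 members together with 6 overexpression-only sites, so condition-only sites of both kinds lay at that gene. With 4 members each followed MAST4, PDZRN3, MAPKAP1, RAI14, COL15A1, RBMS3, TEC, ASTN2, SASH1, RNF150, CDH12 and DCT. They complete the 20 genes named for the most members, and further genes with 4 members fell outside these 20 by their peak numbers. At MAPKAP1, which encodes a subunit of mTOR complex 2, the 4 members were packed into introns at chr9:128300201-128312949. Of these 12 genes MAST4, PDZRN3, COL15A1, TEC and RNF150 also had an overexpression-only site, and the others had 0. DCT encodes an enzyme of melanin synthesis, and 3 of its 4 members lay in introns of another coding gene.

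**Figure D4:**
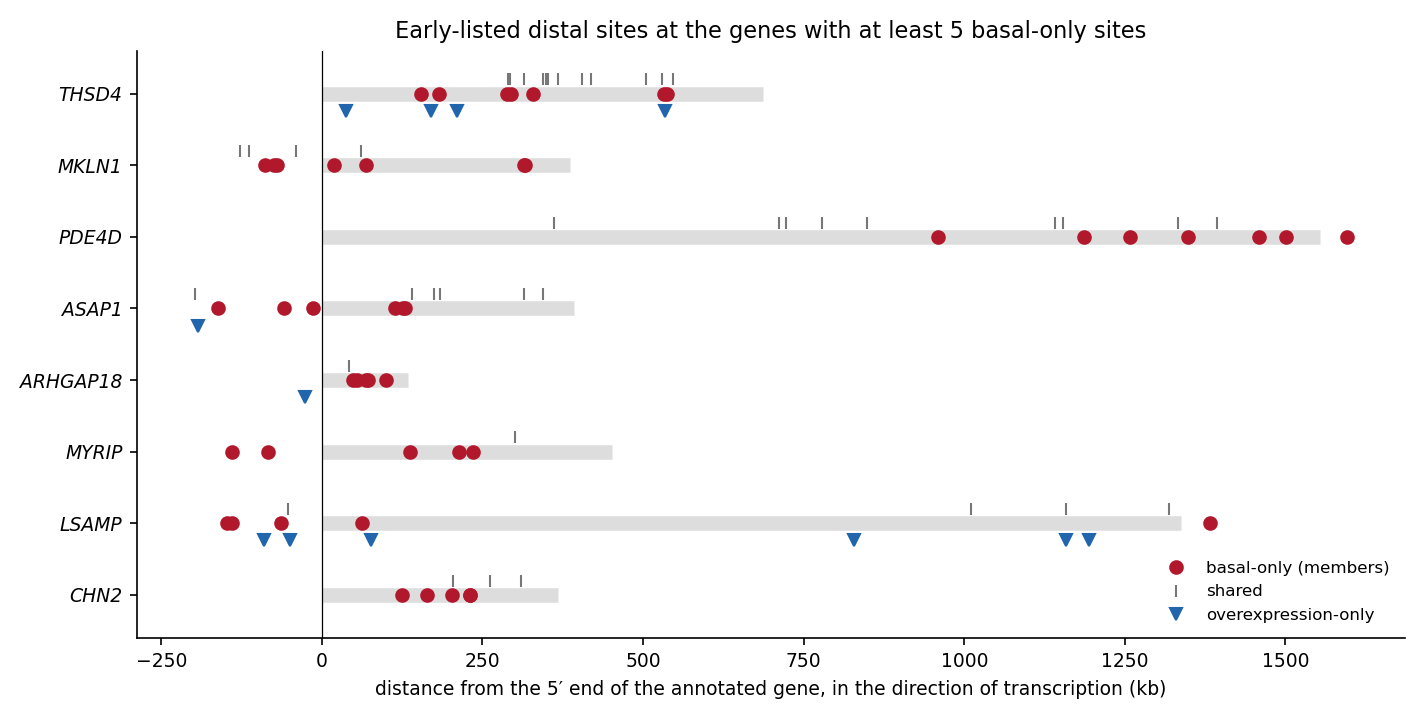
Early-listed distal sites at the 8 genes with at least 5 members, by distance from the 5′ end of the annotated gene in the direction of transcription (kb). Grey bars are the annotated genes, circles members, vertical ticks shared sites and triangles overexpression-only sites. The 7 members of THSD4 and the 5 of CHN2 lie inside the genes, while those of ASAP1 and MYRIP lie on both sides of the 5′ end.

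The genes with a member also had other sites. A shared distal site was assigned to 507 of them, 38.9% (36.3 to 41.6), and an overexpression-only distal site to 242, 18.6% (16.5 to 20.8). A site within 1 kb of one of their starts was listed in both conditions for 644 genes (49.4%), in neither for 459 (35.2%), in the basal list only for 97 (7.44%) and in the overexpression list only for 103 (7.90%). For the genes of overexpression-only sites these shares were, in the same order, 47.0%, 37.2%, 5.18% and 10.7%. Most genes of either class thus had a site at a start in both lists or in neither, which was not particular to the members.

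The study listed genes from expression arrays in the same cell line under SF-1 knockdown and overexpression, which are other samples. Of the genes lower on SF-1 overexpression, 47 were nearest to an early-listed distal site of either list, and 29 of them, 61.7% (46.4 to 75.5), had a member, against 39.0% of all such genes. An overexpression-only site was assigned to 9 of the 47, 19.1% (9.15 to 33.3), against 26.6%. For the genes higher on SF-1 overexpression the order was the opposite: of 59, 14 had a member, 23.7% (13.6 to 36.6), and 32 an overexpression-only site, 54.2% (40.8 to 67.3). Median gene lengths of these lists were 150 and 151 kb, against 87.0 kb over all 3337 genes, and the part of length in the distance from the background was not tested. Of the genes lower on SF-1 knockdown 25 of 61 had a member, 41.0% (28.6 to 54.3), and of those higher on knockdown 10 of 24, 41.7% (22.1 to 63.4), both near the background. These are counts beside a background, without a set test.

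**Figure D5:**
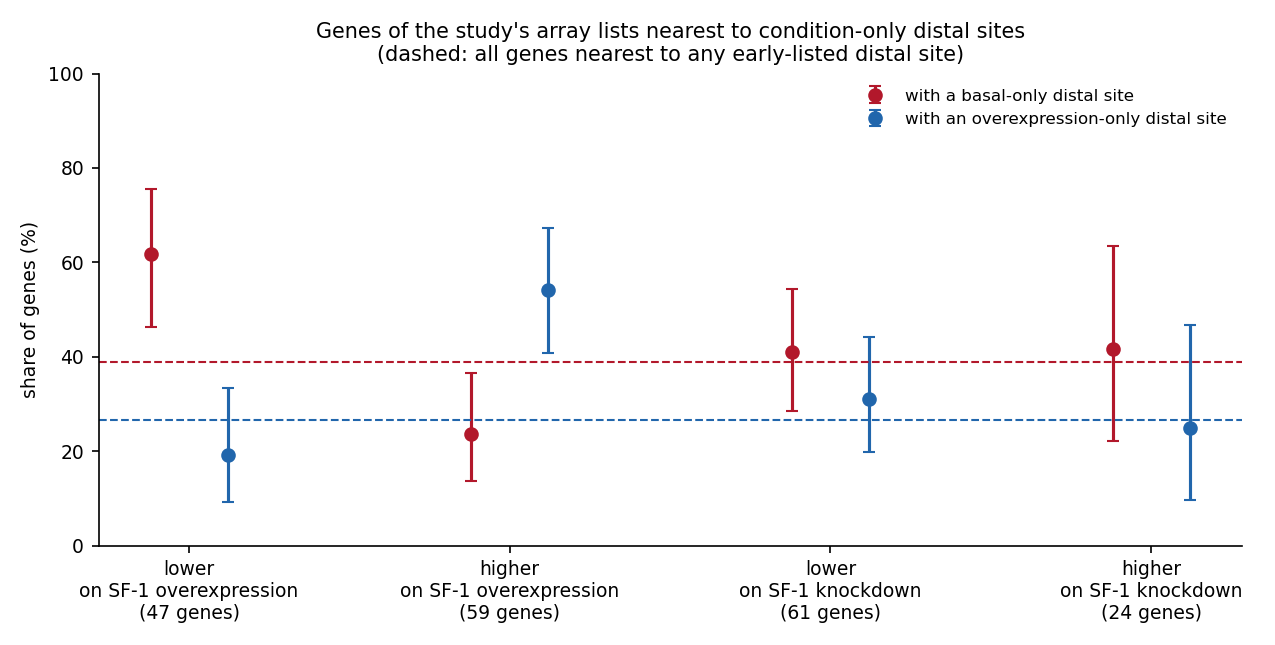
Share of genes (percent) of the study's 4 array lists that were nearest to a basal-only or an overexpression-only early-listed distal site, with exact 95% intervals, among genes nearest to any early-listed distal site. Dashed lines are the shares over all 3337 such genes, 39.0% and 26.6%. Genes lower on SF-1 overexpression lie above the line for basal-only sites (61.7%) and genes higher on overexpression above that for overexpression-only sites (54.2%).

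Members at the genes lower on SF-1 overexpression numbered 52. THSD4 led with 7, followed by COL15A1, which encodes a basement membrane collagen, and RBMS3, an RNA-binding protein gene, with 4 each. At COL15A1 the introns held 3 members between chr9:101812501 and 101823849, of which site 9088 carried both an AP-1 and an SF-1 word. ADAMTS9 and CACNA1C, the gene of an L-type calcium channel subunit, had 3 members each. At CACNA1C they lay in introns, site 9595 with an AP-1 word and site 8920 with an SF-1 word. OSBPL10, ADAMTSL1, P3H2, DUSP6, CALB1, TMEM163 and PDK4 had 2 each. DUSP6 encodes a phosphatase that switches off ERK, and its members lay 83773 and 112398 bp downstream of its start. PDK4 encodes a kinase that restrains pyruvate dehydrogenase, and its members lay 45872 and 49997 bp upstream. Of these 12 genes, THSD4, COL15A1, ADAMTS9 and CACNA1C also had an overexpression-only site. At genes higher on overexpression, PTPRZ1, a receptor phosphatase gene, had 3 members and the guidance ligand gene SLIT2 had 2.

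Genes lower on SF-1 knockdown with several members included MYRIP with 5, the synaptic vesicle gene SV2B with 3, and MITF, ALDH1A1, TMEM163 and ELMO1 with 2 each. MITF encodes a transcription factor of melanocytes and ALDH1A1 an enzyme of retinoic acid synthesis. Genes higher on knockdown with several members were ADAMTS9 and RCAN2, a calcineurin inhibitor gene, with 3 each, and PI15 and LECT2 with 2 each. ADAMTS9 was thus lower on overexpression and higher on knockdown in the study's lists.

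The 10 pathway lists differed in their shares of genes with a member. Their intervals were wide, and those of angiogenic factors, of axon guidance and of channels lay above the 39.0% of all genes. For TGF-beta and BMP signalling, 9 of 15 genes with any early-listed distal site had a member, 60.0% (32.3 to 83.7), and 1 had an overexpression-only site. The ligands were BMP4, with 2 members 21546 and 143596 bp upstream, TGFB2 and INHBA. The receptors were TGFBR2 and TGFBR3, the signal carriers and brakes SMAD2, SMAD3 and SMAD6, and the extracellular inhibitor FST. SMAD6 and SMAD3 are neighbours, and their members lay in the space between them, at chr15:67175801-67176149 and chr15:67196051-67196349. The TGFBR3 member carried an SF-1 word and those of SMAD3 and FST a CTCF core. An AP-1 word was carried by the SMAD6 member and by the BMP4 member 21546 bp upstream. For Wnt signalling 6 of 16 genes had a member, 37.5% (15.2 to 64.6), close to the background, and 5 had an overexpression-only site. The Wnt genes with a member were the transcription factor gene TCF7L2 and the receptor gene LGR5 with 2 each. The others were the ligand WNT5A, its receptors ROR1 and ROR2, and the inhibitor DKK2. Both members at LGR5 carried a CTCF core. For Notch signalling 2 of 7 genes had a member, the coactivator MAML3 and RBPJ, which encodes the DNA-binding partner, and 0 had an overexpression-only site.

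Angiogenic factors and receptors had a member at 8 of 10 genes, 80.0% (44.4 to 97.5). These were the ligands PDGFC, PDGFD, FGF9, ANGPT1 and ANGPT4 and the receptors TEK, KDR and NRP2, with 1 member each. Axon guidance and synaptic adhesion had members at 15 of 21 genes, 71.4% (47.8 to 88.7), among them ROBO1 and SEMA6D with 3 each and CNTN6 and SLIT2 with 2 each. Potassium and calcium channels had members at 19 of 30 genes, 63.3% (43.9 to 80.1), with 26 members in all. Besides CACNA1C, those with 2 were KCNH7, KCNMB2, KCNIP4, KCNMA1 and CACNA2D1. Extracellular matrix genes had members at 7 of 17, 41.2% (18.4 to 67.1), near the background. Genes of the axon and channel lists are often long, and the shares were not adjusted for length.

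Of the genes for steroid production and its control 3 of 10 had a member, 30.0% (6.67 to 65.2), an interval that holds the 39.0% of all genes, and as many had an overexpression-only site. FDX1, the ferredoxin that feeds electrons to mitochondrial steroid hydroxylases, had 2. Its site 9599, 53072 bp upstream, held a CTCF core and lay 202 bp from an overexpression site. Its site 11977, in an intron, held an AP-1 and an SF-1 word. KCNK3, a potassium channel gene that helps to set the membrane potential of adrenal cells, had 1 intronic member with an SF-1 word. NR5A1, the SF-1 gene itself, had 1 member, site 11434 at chr9:127250151-127250399. It was intronic, 12990 bp downstream of a start, with 55.0% GC, no CTCF core, no AP-1 word and no SF-1 word, and the nearest overexpression site lay 38152 bp away. This site was singled out after its values were seen. Of 8 adrenal transcription factor genes with any early-listed distal site 4 had a member, namely GLI3 with 2 and NR5A1, MEIS1 and DACH1 with 1 each. An overexpression-only site was assigned to 2 of the 8. Of the AP-1 subunit genes FOSL2 had 1 member, 173865 bp upstream.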

How the data were processed

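FAIRE-seq had been done in H295R/TR SF-1 cells at basal SF-1 and after 3 days of doxycycline, with 1 library per condition, and samples were grouped per the labels. The authors deposited 1 peak list per FAIRE library. Per the file headers each is a browser track whose lines hold coordinates, the peak number in running order, a strand and a score. The score that was deposited was 1000 for every basal site and held no information. The submitters' processing notes name CASAVA 1.8 and hg19, and the FAIRE aligner, caller and threshold are not given in the sources used here. The lists give no read counts, so depth is unknown. All starts lay on a 50 bp grid and 0 sites ran past a chromosome end of GRCh37.

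Genes were from GENCODE release 44 mapped to GRCh37. Overlap meant 1 bp or more. Flanks were 2 stretches of the width of the site, starting 1000 bp beyond its ends, and their shares are means of both. Shares have exact (Clopper-Pearson) intervals, differences Newcombe intervals, and differences from flanks or in mean GC normal intervals over sites. Strata were 50 bp of width by 5 points of GC. No p-value was computed. The scripts were tested on simulated data and ran in Python 3.11.15 with numpy 2.4.6, pandas 2.3.3 and scipy 1.17.1.

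Genes were named if they had the most members (20 genes), or at least 2 members and a place in 1 of 10 pathway lists or 4 lists of the study (up to 12 a list), with ties by lowest peak number. Genes with 1 member are named as list members, after their values were seen. Named sites were the 10 lowest peak numbers, the 3 widest and those next to each limit. The members, lists and tests were chosen with earlier results of these data known. Names of the study's lists were matched to GENCODE directly or through RefSeq synonyms. Input DNA was not analysed here, and a few named items are not reported here.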

Additional observations from a re-analysis of the deposited data

How the results depend on the processing

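The 11 results were recomputed under 66 combinations of result and setting, and 55 kept their direction and their side of the limit. The number of members was 425 with the first 25% of the peak numbers and 905 with sites farther than 20 kb from every start. The intronic share was 51.6% beyond 20 kb and 60.1% within 100 kb of a coding start. The share of genes with several members was 10.2% in the first 25% of the numbers and 16.7% within 100 kb. Of genes lower on SF-1 overexpression, 14 had a member in the first 25%, 21 beyond 20 kb and 23 within 100 kb. Only these counts were recomputed, without the share over all genes. They do not show whether the difference from all genes held at these settings. The settings named so far keep fewer sites by construction, and the cause of the shifts in the intronic share was not tested. The AP-1 difference from the overexpression-only sites was 2.57 points (-0.453 to 5.43) beyond 20 kb, and the CTCF difference 1.57 points (-0.183 to 3.22) with 0 mismatches, intervals that reached 0. The SF-1 difference turned to 1.46 points within strata of width and GC, and was -12.9 points (-16.5 to -9.17) with the word shortened by its first letter. The cause was not tested. Standardising to the place in the list, an alternative chosen after seeing the data, gave 6.88 points for CTCF, 4.33 for AP-1 and -1.44 for SF-1. Leaving repeats out was not run, because the reference sequence held 0 lower-case bases and so marked no repeats. No paired analysis was possible because each condition had 1 library. The unknown depth limits every statement that a site was called in 1 list only.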
